A study of Mus musculus with 6 samples.

Results

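The kinesin genes of mouse embryonic stem cells were followed across 3 pools of RNA: cells given VD3 plus MM-401, cells given VD3, and untreated cells. Members were the rows whose gene name, split at commas, begins with Kif and a number and ends there or in a letter from a to c, or begins with Kifc and a number. The tables hold 43 such rows of 62490 loci, which carry 42 of 51398 gene names. Of these rows, 39 name a kinesin and no other protein-coding gene, 3 share the locus with a neighbouring gene, and 1, Kifc5c-ps, is a pseudogene. The 41 protein-coding names were split by their known function into 15 mitotic kinesins, 17 transport kinesins and 9 ciliary, signalling and other kinesins. Kif28, the last of the 42 protein-coding names of GENCODE that the pattern takes, is not analysed here.

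All cells were embryonic stem cells of the genotype Mll1fl/fl; Cre-ER TM on the C57BL/6J strain, derived from the blastocyst and grown with leukemia inhibitory factor on mouse embryonic fibroblast feeder cells. They thus carry loxP-flanked alleles of Mll1, which encodes a histone methyltransferase, and a Cre recombinase that tamoxifen switches on; tamoxifen is not among the agents that the labels list for any group. VD3 is the active hormone made from vitamin D, and MM-401 inhibits the methyltransferase MLL1. The VD3 plus MM-401 group received 1 µM of VD3 and 100 µM of MM-401 for 5 days. The VD3 group received 1 µM of VD3 for 5 days, and the untreated group received neither agent, with no time given. No group received MM-401 alone. Each group has 2 libraries in the labels, which nothing ties to separate cultures beyond their numbers, and the deposited tables join them into 1 pooled column per group. The column of VD3 carries that name. The column taken as untreated was matched through the part of its name that only that group's titles share. The column taken as VD3 plus MM-401 begins with VD3, which the titles of both treated groups hold. It was assigned because it is not the VD3 column. Another meaning of the remaining letters of either name would alter each comparison with these columns.

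Kinesins are motor proteins that use ATP to walk along microtubules, the tubulin filaments of the cell, or to shorten them. Mitotic kinesins build the spindle, move chromosomes and carry out cytokinesis, and their transcripts accumulate in dividing cells before mitosis. Transport kinesins carry vesicles, organelles and RNA, some of them through light chains or cargo adaptors, while dynein carries cargo in the opposite direction. Embryonic stem cells divide rapidly with short gap phases.

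Levels are FPKM, fragments scaled by the authors to transcript length and library depth, so that levels of different genes can be set side by side per length. Each FPKM comes with the authors' lower and upper bound, whose confidence level is not given in the sources used here, and with an estimated count. A difference is the log2 of FPKM + 1 in the first-named pool minus that in the other, which understates the difference of low genes. The SD given beside it is that of the log2 ratio of the estimated counts, from the authors' variance of the counts, and describes their model of each pool. It is not an SD of the FPKM. The authors' FPKM intervals are wider than it for some genes, among them Kif22 and Kif5c. No spread between libraries is behind any value, so no test was possible and no p-value is given. The criterion for a lower or higher gene was at least 5 FPKM in the higher pool, a difference of at least 1 (2-fold) and intervals that did not overlap; only genes past it are called lower or higher. Estimated counts summed to 73499639 with VD3 plus MM-401, 73636342 with VD3 and 62284598 without treatment. The median gene of at least 5 FPKM stood 0.27 above untreated in the VD3 plus MM-401 pool and 0.36 above untreated in the VD3 pool on the log2 scale, and 0.02 above VD3 with MM-401 added. A relative difference is the difference minus that shift. Both comparisons with untreated cells share the untreated pool, so their likeness is no independent support for either.

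The pools held the transcripts of stem cells: 7 of the 8 listed stem cell markers have a row, and all 7 had at least 26.4 FPKM in every pool, with a summed level of 2925 FPKM with VD3 plus MM-401, 3011 with VD3 and 1889 in untreated cells, and none of the 7 was lower or higher in either treated pool. The 16 fibroblast markers, which stand for feeder cells, summed to 576 FPKM with VD3 plus MM-401, 517 with VD3 and 293 untreated, while Lum was listed at 0 in all pools. Col1a1 was at 0.412 FPKM with VD3 plus MM-401, 0.657 with VD3 and 0.630 untreated. Of these 16 genes, 9 were under 1 FPKM with VD3 plus MM-401, 7 with VD3 and 7 untreated. S100a6 and Vim carried much of the difference. Fn1, the most abundant of the 16 in untreated cells, stood the other way. It was at 101 FPKM with VD3 plus MM-401, 115 with VD3 and 136 untreated. S100a6 was higher than untreated in both treated pools, at 287 FPKM with VD3 plus MM-401, 213 with VD3 and 83.8 untreated. Vim was at 165 FPKM with VD3 plus MM-401, 159 with VD3 and 50.4 untreated, and was higher with VD3, while its interval with VD3 plus MM-401 overlapped the untreated one. The other 14 fibroblast markers were neither lower nor higher, and 4 of the 16 had at least 5 FPKM. The 10 measured neuron markers summed to 511 FPKM with VD3 plus MM-401, 302 with VD3 and 133 untreated. Of these, 5 were under 1 FPKM with VD3 plus MM-401, 5 with VD3 and 4 untreated, Dcx was at or below 0.0123 FPKM, and Stmn2 was at 456 FPKM with VD3 plus MM-401, 256 with VD3 and 110 untreated. Only 3 of the 10 had at least 5 FPKM, and each of them was higher in at least 1 treated pool. Nefl was higher in both, at 14.4 FPKM with VD3 plus MM-401, 19.3 with VD3 and 5.94 untreated. Gap43 was higher with VD3 plus MM-401, at 31.2 FPKM with VD3 plus MM-401, 20.3 with VD3 and 8.54 untreated, and Stmn2 was higher with VD3. Among all genes of at least 5 FPKM, 4.26% were higher with VD3 plus MM-401 and 0.926% with VD3. The share of lower genes was 2.68% with VD3 plus MM-401 and 4.22% with VD3. The part of these markers in the kinesin values was not tested.

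With VD3 plus MM-401, 4 kinesin genes were lower than in untreated cells and none was higher, among 28 with at least 5 FPKM. The 4 were Kif20b, Kif18a and Kif11 of the mitotic class and Kif5b, a transport motor. Among all 10966 genes measured in this comparison, 2.68% were lower and 4.26% were higher by the same criterion, against 14.3% and 0% of the 28 kinesins. With VD3 alone, 5 of 27 kinesins were lower and none higher: the same 4 and Kif21a. Here 4.22% of 10911 genes were lower and 0.926% were higher, against 18.5% and 0% of the 27 kinesins. Between VD3 plus MM-401 and VD3, no kinesin among 24 was lower or higher, where 0.541% and 0.83% of 10717 genes were. After a fit on GC content and length, described further on, 3 kinesins were lower with VD3 plus MM-401 and 4 with VD3, and Kif11 was not among them. In bulk RNA, fewer cells in a phase of the cell cycle and less of a transcript per cell cannot be told apart.

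**Figure D1:**
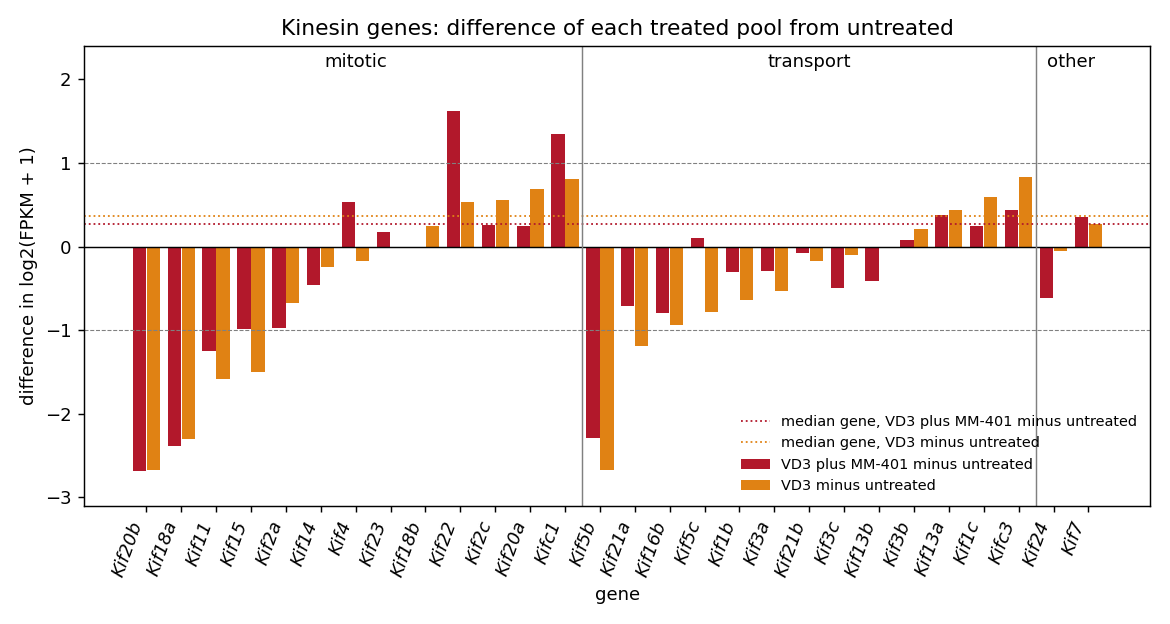
Difference in log2(FPKM + 1) from untreated cells for each kinesin gene with at least 5 FPKM in any pool (vertical axis), by class (horizontal axis). Red bars are VD3 plus MM-401 minus untreated and orange bars are VD3 minus untreated; the dotted lines mark the median gene of each comparison and the dashed lines a 2-fold difference. Kif20b, Kif18a and Kif5b lie below -2 in both comparisons, and Kif22 and Kifc1 lie above 1 with VD3 plus MM-401.

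Mitotic kinesins held most of the kinesin RNA. They summed to 1121 FPKM with VD3 plus MM-401, 949 FPKM with VD3 and 959 FPKM in untreated cells, which was 85.5% of all kinesin FPKM with VD3 plus MM-401, 82.4% with VD3 and 78.1% untreated. The sum over all kinesins was 1311 FPKM with VD3 plus MM-401, 1151 with VD3 and 1227 untreated. On CPM, the estimated count scaled to the pool total with no length in it, the sum over all kinesins was 2405 with VD3 plus MM-401, 2667 with VD3 and 3461 in untreated cells. On that scale the mitotic sum was 1680 with VD3 plus MM-401, 1870 with VD3 and 2284 in untreated cells. The pool with the highest sum thus differed between both scales, for all kinesins and for the mitotic class.

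Spindle assembly motors included 1 gene that was lower in both treated pools. Kif11, whose motor slides antiparallel microtubules apart and so separates the spindle poles, lies on chromosome 19 from 37376403 to 37421859 (GRCm38, plus strand). It had 23.9 FPKM with VD3 plus MM-401 (authors' interval 16.0 to 31.8, estimated count 7723), 18.8 FPKM with VD3 (12.6 to 24.9, count 6079) and 58.0 FPKM in untreated cells (38.7 to 77.3, count 18824). Both treated intervals lay below the untreated one and overlapped each other. The difference from untreated was -1.25 (SD 0.34) with VD3 plus MM-401 and -1.58 (SD 0.34) with VD3. After the fit on GC content and length it was -0.83 with VD3 plus MM-401 and -0.91 with VD3, short of 2-fold in both.

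Kif15, a motor that can support bipolar spindles beside Kif11, had 54.6 FPKM with VD3 plus MM-401, 38.2 with VD3 and 109 untreated. Its differences from untreated were -0.99 (SD 0.35) with VD3 plus MM-401 and -1.49 (SD 0.34) with VD3. The intervals of Kif15 overlapped, so it was not counted. Kifc1, a minus-end motor that gathers microtubules at spindle poles, had 137 FPKM with VD3 plus MM-401, 94.2 with VD3 and 53.6 untreated. Its difference was 1.34 (SD 0.44) with VD3 plus MM-401 and 0.80 (SD 0.40) with VD3, with overlapping intervals. On CPM the difference was 0.47 with VD3 plus MM-401 and 0.48 with VD3. Kifc1 shares 45.8% of its 50-base words with Kifc5b, so reads of these genes may have been split and its level is uncertain.

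Kif18a, which shortens the growing ends of kinetochore microtubules and damps chromosome oscillations, lies on chromosome 2 from 109280738 to 109341747 (plus strand). It had 3.87 FPKM with VD3 plus MM-401 (2.11 to 5.62, count 854), 4.13 FPKM with VD3 (2.35 to 5.91, count 879) and 24.4 FPKM in untreated cells (15.8 to 32.9, count 5174). The treated pools were close to each other and far below the untreated pool. The differences from untreated were -2.38 (SD 0.41) with VD3 plus MM-401 and -2.31 (SD 0.39) with VD3. Its relative Kif18b, which acts on astral microtubules, had 38.9 FPKM with VD3 plus MM-401, 47.0 with VD3 and 39.4 untreated. The intervals of Kif18b reach 0 in all pools, and its differences from untreated were -0.02 with VD3 plus MM-401 and 0.25 with VD3.

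Kif20b, which works at the midbody in the last step of cytokinesis, had the most negative difference among the kinesins with VD3 plus MM-401. The gene lies on chromosome 19 from 34922361 to 34975745 (plus strand). It had 5.57 FPKM with VD3 plus MM-401 (3.69 to 7.44, count 2049), 5.64 FPKM with VD3 (3.65 to 7.62, count 2102) and 41.2 FPKM in untreated cells (27.6 to 54.9, count 15374). The treated pools were nearly equal, and each was below the untreated interval. The difference from untreated was -2.68 (SD 0.34) with VD3 plus MM-401 and -2.67 (SD 0.35) with VD3.

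Other cytokinesis motors did not pass the criterion. Kif23, the motor of the centralspindlin complex, had the highest level of all kinesins, with 301 FPKM with VD3 plus MM-401, 264 with VD3 and 266 untreated. Its differences from untreated were 0.18 with VD3 plus MM-401 and -0.01 with VD3. Kif20a, which brings the chromosomal passenger complex to the central spindle, had 138 FPKM with VD3 plus MM-401, 188 with VD3 and 116 untreated. Its differences from untreated were 0.25 with VD3 plus MM-401 and 0.69 with VD3, and 29.3% of its exonic bases overlap Cdc23 on the other strand. Kif14, which binds citron kinase at the midbody, had 8.71 FPKM with VD3 plus MM-401, 10.3 with VD3 and 12.3 untreated. Kif4, a chromokinesin that shapes chromosomes and the central spindle, had 33.6 FPKM with VD3 plus MM-401, 20.3 with VD3 and 23.0 untreated. Its differences from untreated were 0.53 with VD3 plus MM-401 and -0.17 with VD3. Of its exonic bases, 15.1% overlap Pdzd11 on the other strand, and counting is not stated to use strand.

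Microtubule-shortening motors of the Kif2 group had differences of both signs, none of them past the criterion. Kif2a, which acts at spindle poles, had 34.0 FPKM with VD3 plus MM-401, 42.0 with VD3 and 67.7 untreated. Its intervals overlap, and its differences from untreated were -0.97 (SD 0.83) with VD3 plus MM-401 and -0.68 (SD 0.45) with VD3. Kif2c, which corrects wrong attachments at centromeres, had 73.1 FPKM with VD3 plus MM-401, 90.1 with VD3 and 61.0 untreated. The differences of Kif2c from untreated were 0.26 (SD 0.33) with VD3 plus MM-401 and 0.56 (SD 0.34) with VD3. Kif2a has 19.2% of its exonic bases in common with Dimt1 on the other strand. Kif2b was listed at 0 in all pools.

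Kif22, a chromokinesin that pushes chromosome arms away from the poles, gave different pictures in FPKM and in counts. Its own locus had 268 FPKM with VD3 plus MM-401 (0 to 601), 126 FPKM with VD3 (52.8 to 200.1) and 86.7 FPKM in untreated cells (33.7 to 139.7). The estimated count was 17082 with VD3 plus MM-401, 16709 with VD3 and 11011 untreated, so both treated pools were close in counts and apart in FPKM. The difference from untreated was 1.62 (SD 0.56) with VD3 plus MM-401 and 0.54 (SD 0.54) with VD3 in FPKM, and on CPM it was 0.39 with VD3 plus MM-401 and 0.36 with VD3. A second locus that joins Kif22 and its neighbour Maz had 440 FPKM with VD3 plus MM-401, 384 with VD3 and 218 untreated. How reads were divided between both loci was not tested. The locus shared by Kifc5b, a near copy of Kifc1, and Phf1 had 13.2 FPKM with VD3 plus MM-401, 10.9 with VD3 and 7.81 untreated.

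**Figure D2:**
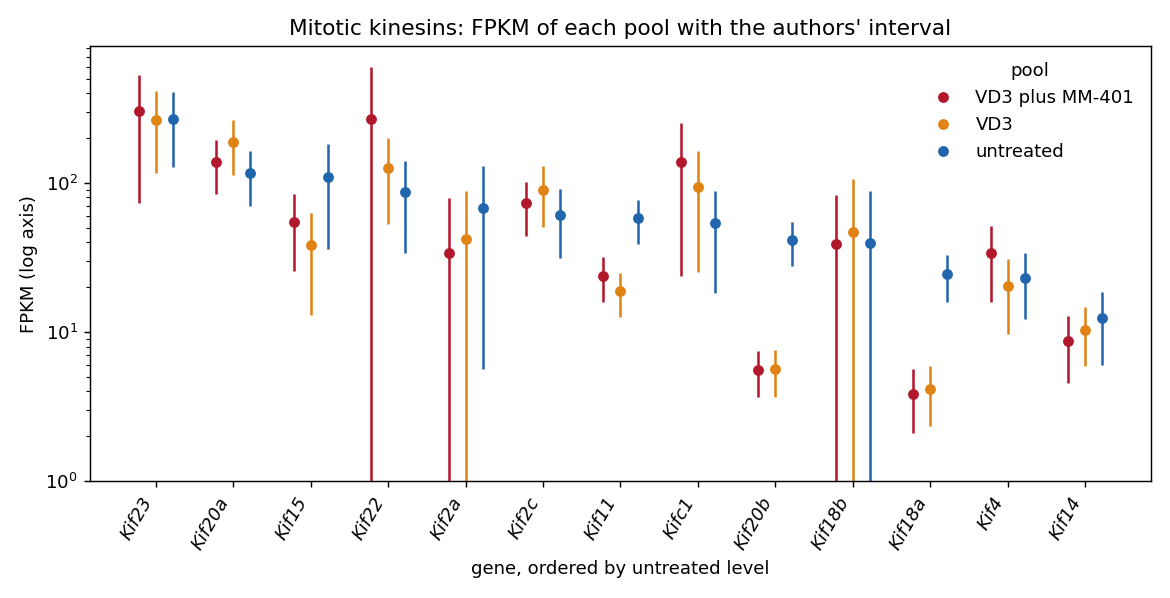
FPKM of each mitotic kinesin gene with at least 5 FPKM (vertical axis, log scale) in the VD3 plus MM-401 (red), VD3 (orange) and untreated (blue) pools, ordered by untreated level, with the authors' interval as a vertical line that runs off the axis where its lower bound is 0. The treated intervals of Kif11, Kif20b and Kif18a lie below the untreated interval, and all other genes have intervals that overlap.

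Promoters of mitotic kinesins are shown because a shared element could be read in them, the cell cycle genes homology region (CHR), through which the DREAM and MuvB complexes are known to hold cell cycle genes silent or switch them on. The windows are from RefSeq (GRCm38.p6), which matched 31 of the 39 single-gene loci, and run from 250 bases before the start to 50 bases after it. Capitals mark TTTGAA or, on the other strand, TTCAAA.

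Kif20b promoter, chr19:34922108-34922407, plus strand: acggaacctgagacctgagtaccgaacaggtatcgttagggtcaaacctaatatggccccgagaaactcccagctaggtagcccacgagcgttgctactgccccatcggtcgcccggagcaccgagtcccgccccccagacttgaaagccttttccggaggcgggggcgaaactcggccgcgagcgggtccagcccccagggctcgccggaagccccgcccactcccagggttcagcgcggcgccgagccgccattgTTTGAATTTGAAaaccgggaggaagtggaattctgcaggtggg
Kif11 promoter, chr19:37376132-37376431, plus strand: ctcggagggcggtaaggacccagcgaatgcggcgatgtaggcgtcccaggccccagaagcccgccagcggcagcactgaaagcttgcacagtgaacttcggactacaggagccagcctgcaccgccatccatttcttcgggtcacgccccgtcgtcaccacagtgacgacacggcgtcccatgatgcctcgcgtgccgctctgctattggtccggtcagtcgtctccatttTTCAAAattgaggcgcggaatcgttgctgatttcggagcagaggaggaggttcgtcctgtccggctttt
Kif22 promoter, chr7:127042371-127042670, minus strand: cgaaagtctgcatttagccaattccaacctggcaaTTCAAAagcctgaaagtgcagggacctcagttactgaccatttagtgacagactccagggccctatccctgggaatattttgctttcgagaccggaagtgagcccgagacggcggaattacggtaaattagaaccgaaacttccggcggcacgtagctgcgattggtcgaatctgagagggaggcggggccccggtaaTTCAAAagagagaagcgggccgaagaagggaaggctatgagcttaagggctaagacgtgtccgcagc
Kifc1 promoter, chr17:33890584-33890883, minus strand: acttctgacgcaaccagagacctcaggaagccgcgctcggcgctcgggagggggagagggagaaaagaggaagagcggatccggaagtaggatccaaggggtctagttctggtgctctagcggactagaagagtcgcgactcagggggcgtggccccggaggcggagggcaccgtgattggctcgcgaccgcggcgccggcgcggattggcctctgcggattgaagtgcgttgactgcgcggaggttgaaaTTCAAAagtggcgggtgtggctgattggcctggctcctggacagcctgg

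In Kif20b the motif was found with its first base at 8 and 14 after the start, side by side. In Kif11 it began 19 bases before the start (-19), in Kif22 at -215 and -17, and in Kifc1 at 2, each on the other strand. TTTGAA on either strand was in the window of 10 of 13 mitotic kinesins, of 1 of 10 transport kinesins and of 2 of 8 other kinesins, against 20.2% of the 27025 genes in the table. Some RefSeq windows lie inside the gene as GENCODE places it, among them those of Kif14 and Kif2c. The transport gene with the motif is Kif1a, through such an inner window, and its window near the GENCODE start does not hold it. The mitotic genes with it include Kif20b and Kif11, which were lower, and Kif23, Kif2c, Kif4, Kif14, Kif15, Kif18b, Kif22 and Kifc1, which were not counted. The window of Kif18a, which was lower too, does not hold these letters. Kif5b, also lower, and Kif20a are not among the genes with a window, so the motif was not looked for in them. CCAAT on either strand was in 8 of the 13 mitotic windows, 3 of 10 transport windows and 4 of 8 others, against 41.1% of all genes. The related TTCGAA was in none of the mitotic or transport windows and in 1 of the 8 others, Kif24, against 1.80% of all genes. No TTTGAA or TTCGAA match shares bases with a CCAAT match in these windows. A match is a description of the sequence and names no bound factor.

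The coding sequence of the motor domain is shown for 6 members because it carries what kinesins share, the phosphate-binding loop that holds ATP, in different codons. Capitals mark the codons of the loop, with 30 bases on each side, from the longest protein-coding transcript of GENCODE vM21.

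Kif20b: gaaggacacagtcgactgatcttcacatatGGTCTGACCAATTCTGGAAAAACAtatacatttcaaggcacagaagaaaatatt
Kif11: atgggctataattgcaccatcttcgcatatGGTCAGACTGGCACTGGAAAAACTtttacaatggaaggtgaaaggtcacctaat
Kif15: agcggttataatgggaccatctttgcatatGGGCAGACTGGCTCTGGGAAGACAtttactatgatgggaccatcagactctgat
Kif22: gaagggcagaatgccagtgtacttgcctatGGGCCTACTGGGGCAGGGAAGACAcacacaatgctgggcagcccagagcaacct
Kifc1: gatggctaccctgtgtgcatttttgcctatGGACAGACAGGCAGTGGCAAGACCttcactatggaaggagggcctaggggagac
Kif5c: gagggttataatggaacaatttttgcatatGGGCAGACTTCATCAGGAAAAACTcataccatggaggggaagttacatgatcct

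A pattern of this loop was in the reading frame of 34 of 39 kinesins, and anywhere in the transcript of 2.62% of 21877 protein-coding genes. The pattern was not matched in Kif18a, Kif18b, Kif20a, Kif23 and Kif26a. It takes only some codons, with C, T or A as the first base of the second codon. A gene without a match can therefore still encode the loop. The loop began 8.51% along the coding sequence in Kif20b and 9.79% along it in Kif11, whose motor domain is near the start, and 60.8% along it in Kifc1, whose motor domain is near the end. GC at the third base of the codons was 37.5% in Kif20b, 39.9% in Kif11 and 44.6% in Kif15, against 58.9% in Kif22, 62.3% in Kifc1 and 65.4% in Kif5c. Among the mitotic members shown, which are a selection, those with fewer G and C at that base had negative differences. Members not shown were mixed. With VD3 plus MM-401, Kif18a with 35.0% stood at -2.38, Kif2a with 37.6% at -0.97, Kif14 with 48.9% at -0.46 and Kif4 with 48.5% at 0.53. The transport gene Kif5c, which is shown and has 65.4%, stood at 0.11 with VD3 plus MM-401 and at -0.79 with VD3. The whole transcripts are compared further on.

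Transport kinesins summed to 175 FPKM with VD3 plus MM-401, 185 FPKM with VD3 and 253 FPKM in untreated cells, and Kif5b was the largest part of that difference. Kif5b, the kinesin heavy chain found in nearly all cells, had 18.9 FPKM with VD3 plus MM-401 (3.22 to 34.5, count 3979), 14.2 FPKM with VD3 (8.04 to 20.3, count 2959) and 96.0 FPKM in untreated cells (57.8 to 134, count 21355). Both treated pools were below the untreated interval. The difference from untreated was -2.29 (SD 0.37) with VD3 plus MM-401 and -2.68 (SD 0.35) with VD3. The gene lies on chromosome 18 from 6201002 to 6242174 (minus strand). Its relatives, which are enriched in neurons, had other patterns. Kif5c had 10.5 FPKM with VD3 plus MM-401, 5.20 with VD3 and 9.70 untreated, and Kif5a had at most 2.75 FPKM.

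Kif21a, a motor that slows microtubule growth at the cell cortex, was lower with VD3 and not counted with VD3 plus MM-401. It lies on chromosome 15 from 90933276 to 91049948 (minus strand). It had 3.08 FPKM with VD3 plus MM-401 (1.22 to 4.94, count 811), 1.91 FPKM with VD3 (0.992 to 2.83, count 640) and 5.66 FPKM in untreated cells (3.47 to 7.85, count 1986). The difference from untreated was -0.71 (SD 0.40) with VD3 plus MM-401 and -1.19 (SD 0.38) with VD3, and between both treated pools it was 0.49 (SD 0.42), less than 2-fold. Kif21b, its relative in neurons and immune cells, had 8.03 FPKM with VD3 plus MM-401, 7.46 with VD3 and 8.50 untreated. Kif21a is just above the lowest level that could be counted, and with 5 added to each FPKM its difference with VD3 was -0.62, short of 2-fold.

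No other transport kinesin was lower or higher than in untreated cells. Kif16b, which moves early endosomes, came nearest, with 4.01 FPKM with VD3 plus MM-401, 3.52 with VD3 and 7.69 untreated. Its differences from untreated were -0.79 (SD 0.37) with VD3 plus MM-401 and -0.94 (SD 0.37) with VD3. Among vesicle motors, Kif1b had 17.5 FPKM with VD3 plus MM-401, 13.7 with VD3 and 21.9 untreated. Kif1c had 19.7 FPKM with VD3 plus MM-401, 25.4 with VD3 and 16.5 untreated. Kif13a had 20.5 FPKM with VD3 plus MM-401, 21.5 with VD3 and 15.6 untreated. Kif13b had 8.52 FPKM with VD3 plus MM-401, 11.7 with VD3 and 11.7 untreated. Kifc3, a minus-end motor at cell junctions, had 36.8 FPKM with VD3 plus MM-401, 48.7 with VD3 and 27.0 untreated. It had the highest transport level in both treated pools. The motor subunits of the heterotrimeric kinesin that builds cilia had differences of opposite sign. Kif3a had 10.5 FPKM with VD3 plus MM-401, 8.71 with VD3 and 13.1 untreated, a difference of -0.29 with VD3 plus MM-401 and -0.54 with VD3. Its partner Kif3b had 9.21 FPKM with VD3 plus MM-401, 10.2 with VD3 and 8.63 untreated, a difference of 0.08 with VD3 plus MM-401 and 0.21 with VD3. Relative to the median gene both subunits were negative. Kif3a then stood at -0.56 with VD3 plus MM-401 and -0.90 with VD3. Kif3b stood at -0.18 with VD3 plus MM-401 and -0.15 with VD3. Kif3c had 3.49 FPKM with VD3 plus MM-401, 4.91 with VD3 and 5.31 untreated. Of the exonic bases of Kif3c, 35.3% overlap an antisense transcript.

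**Figure D3:**
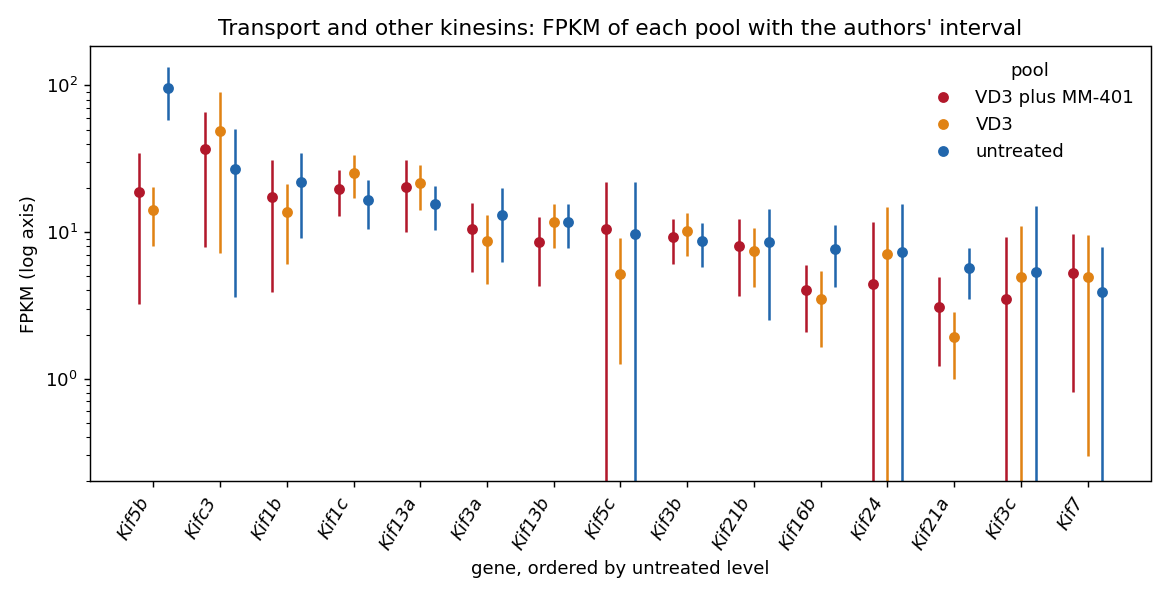
FPKM of each transport kinesin gene with at least 5 FPKM in any pool and of Kif24 and Kif7 (vertical axis, log scale) in the VD3 plus MM-401 (red), VD3 (orange) and untreated (blue) pools, ordered by untreated level, with the authors' interval as a vertical line that runs off the axis where its lower bound is 0. Both treated intervals of Kif5b lie below its untreated interval, and the VD3 interval of Kif21a lies below its untreated interval.

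Ciliary and signalling kinesins were low. Kif24, which acts at centrioles to hold back cilia, had 4.45 FPKM with VD3 plus MM-401, 7.04 with VD3 and 7.35 untreated, and its intervals reach 0. Kif7, a regulator of Hedgehog signalling at the tip of the cilium, had 5.24 FPKM with VD3 plus MM-401, 4.91 with VD3 and 3.90 untreated. Kif26a, which has lost motor activity, had at most 3.19 FPKM, Kif1a, a neuronal vesicle motor, at most 4.08 FPKM, and Kifc2 at most 1.03 FPKM. The locus that Kif17, a ciliary and dendritic motor, shares with Sh2d5 had at most 1.74 FPKM, and the pseudogene Kifc5c-ps at most 4.07 FPKM. Under 1 FPKM in every pool were Kif19a (at most 0.851), Kif9 (0.743), Kif27 (0.733), Kif6 (0.665), Kif26b (0.155) and Kif12 (0.0184).

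Within families of related genes, the lower gene took a smaller share of the summed level in both treated pools. These shares restate the FPKM values by which the genes were called lower and are no separate result. The Kif1, Kif3 and Kif13 families hold no lower gene, and their shares are not given. Kif20b was 3.86% of the summed FPKM of Kif20a and Kif20b with VD3 plus MM-401, 2.91% with VD3 and 26.2% in untreated cells. Kif18a was 9.05% of its sum with Kif18b with VD3 plus MM-401, 8.08% with VD3 and 38.2% untreated. Of the sum of Kif5a, Kif5b and Kif5c, Kif5b was 59.7% with VD3 plus MM-401, 64.1% with VD3 and 88.8% untreated, the main gene of that family in all pools. Kif2a was 31.7% of its sum with Kif2c with VD3 plus MM-401, 31.8% with VD3 and 52.6% untreated, so the larger gene was Kif2c in both treated pools and Kif2a in untreated cells, with intervals that overlap. Kif21a was 27.7% of its sum with Kif21b with VD3 plus MM-401, 20.4% with VD3 and 39.98% untreated.

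**Figure D4:**
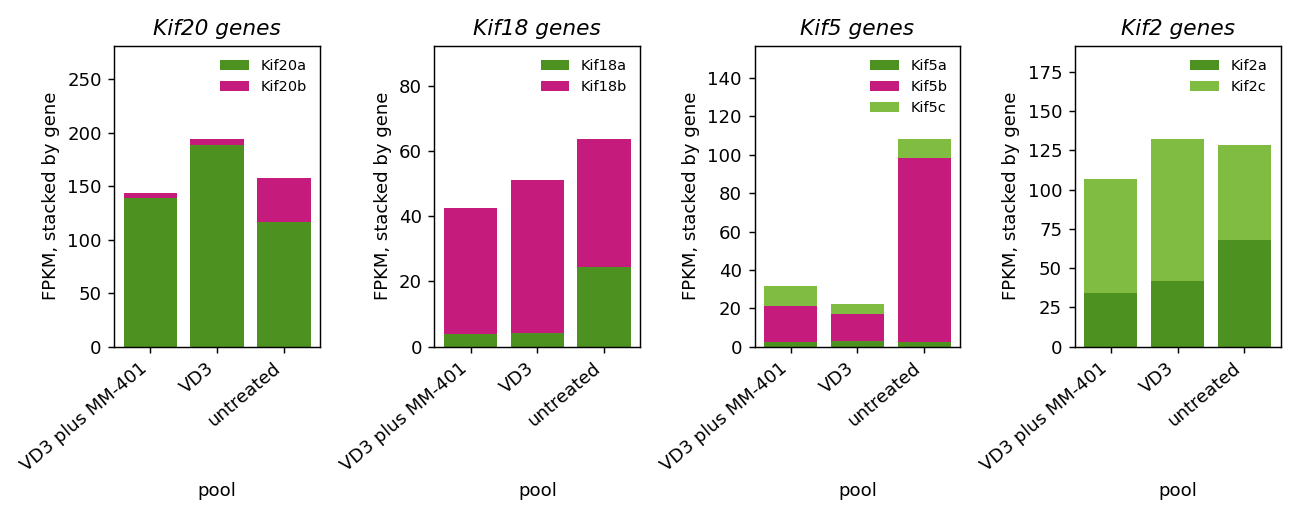
FPKM stacked by gene (vertical axis, linear from 0) in the VD3 plus MM-401, VD3 and untreated pools (horizontal axis) for the Kif20, Kif18, Kif5 and Kif2 genes. Kif20b, Kif18a and Kif5b fill a smaller part of the bar in both treated pools than in untreated cells, and the vertical axes differ between panels.

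Mitotic kinesins as a class had a median difference close to 0 with VD3 plus MM-401 and below 0 with VD3. Over the 13 with at least 1 FPKM, the median was -0.02 with VD3 plus MM-401 and -0.17 with VD3, while over all genes of that level it was 0.21 with VD3 plus MM-401 and 0.30 with VD3. Of the 13, 7 stood below 0 with VD3 plus MM-401 and 8 with VD3, and the rest above it. Relative to the median gene, the mitotic median was -0.29 with VD3 plus MM-401 and -0.53 with VD3. Differences of mitotic kinesins from untreated ranged between -2.68 and 1.62 with VD3 plus MM-401 and between -2.67 and 0.80 with VD3. The median over transport kinesins was -0.29 over 15 genes with VD3 plus MM-401 and -0.05 over 16 genes with VD3. Relative to the median gene it was -0.56 with VD3 plus MM-401 and -0.41 with VD3. Of all kinesins with at least 1 FPKM, 25 of 31 stood below the median gene with VD3 plus MM-401 and 23 of 32 with VD3, while of all genes it was 53.5% with VD3 plus MM-401 and 55.3% with VD3. Between VD3 plus MM-401 and VD3 the medians were -0.02 for mitotic and -0.10 for transport kinesins, against 0.02 for all genes.

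With MM-401 added to VD3, no kinesin passed the criterion against VD3 alone. Kif22 stood at 1.08 (SD 0.57) in FPKM and at 0.03 on CPM, with overlapping intervals. Kif5c had 10.5 FPKM with VD3 plus MM-401 and 5.20 FPKM with VD3, a difference of 0.89 (SD 0.37) with overlapping intervals, and Kif4 had a difference of 0.70 (SD 0.46). The genes that were lower in both treated pools differed little between them: -0.02 (SD 0.35) for Kif20b, -0.08 (SD 0.44) for Kif18a, 0.33 (SD 0.33) for Kif11 and 0.39 (SD 0.37) for Kif5b. With 1 pool per group these SDs do not show that the pools act alike.

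The composition of the transcripts moved with the differences. Across the 28 kinesins with at least 5 FPKM, the difference of VD3 plus MM-401 from untreated and the GC content of the longest protein-coding transcript had a Spearman rank correlation of 0.75, and across the 27 with VD3 it was 0.84. The genes share the pools and their library preparation and are not independent. Over all protein-coding genes of that level the correlation was 0.41 over 8819 genes with VD3 plus MM-401 and 0.57 over 8797 genes with VD3. The rank correlation with transcript length across kinesins was -0.30 with VD3 plus MM-401 and -0.26 with VD3. Across all protein-coding genes it was -0.57 with VD3 plus MM-401 and -0.41 with VD3. The 4 kinesins lower with VD3 plus MM-401 had 38.3% to 42.2% GC, and the 24 not counted had 38.6% to 59.8% with a median of 49.6%.

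The differences were also computed after a smooth fit on GC content and length over all protein-coding genes had been subtracted. Kif20b then stood at -1.72 with VD3 plus MM-401 and -1.44 with VD3, and Kif5b at -1.59 with VD3 plus MM-401 and -1.71 with VD3. Kif18a stood at -1.14 with VD3 and lower still with VD3 plus MM-401, so these 3 genes remained past 2-fold in both comparisons. Kif11 was no longer past 2-fold in either comparison. Kif21a was at -0.60 with VD3 plus MM-401 and -1.14 with VD3. Kif15 was at -0.64 with VD3 plus MM-401 and -0.92 with VD3. Kif2a, whose GC content of 38.6% is among the lowest of the kinesins, was at 0.10 with VD3 plus MM-401 and 0.65 with VD3 after the fit. Whether GC content or length has a part in these differences was not tested beyond this fit.

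**Figure D5:**
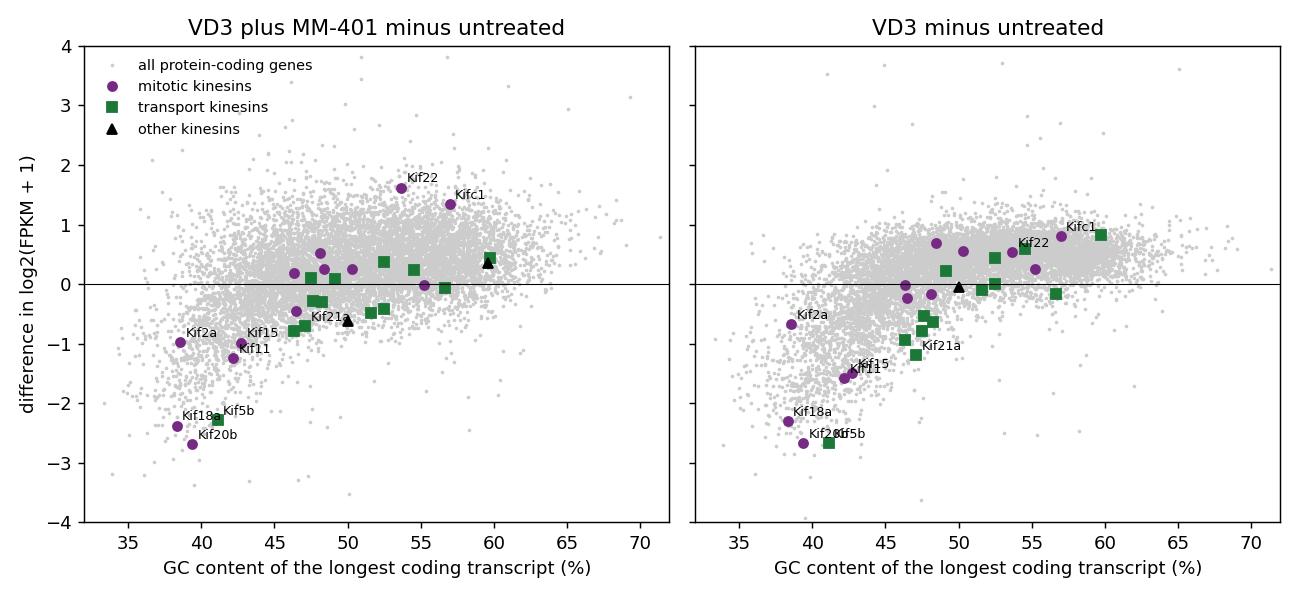
Difference in log2(FPKM + 1) from untreated cells (vertical axis) against the GC content of the longest coding transcript in percent (horizontal axis), for VD3 plus MM-401 (left) and VD3 (right). Grey points are all protein-coding genes, purple circles mitotic, green squares transport and black triangles other kinesins; Kif20b, Kif18a, Kif5b and Kif11 lie at the low end of GC content and of the difference, as do many other genes of low GC content.

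The partners of mitotic kinesins, a list of 20 genes that all had at least 5 FPKM, held 1 lower and 1 higher gene with VD3 plus MM-401 and 1 lower gene with VD3. Each count is 1 of 20, and the share over all genes was 2.68% lower and 4.26% higher with VD3 plus MM-401 and 4.22% lower with VD3. Hmmr, a spindle-pole protein that works with the spindle assembly factor Tpx2, was lower in both treated pools, with 30.6 FPKM with VD3 plus MM-401, 30.5 with VD3 and 72.4 untreated. Birc5, the survivin subunit of the chromosomal passenger complex, was higher with VD3 plus MM-401, with 463 FPKM with VD3 plus MM-401, 334 with VD3 and 191 untreated. Its fellow subunit Cdca8 had 217 FPKM with VD3 plus MM-401, 282 with VD3 and 174 untreated. Aurka, a spindle-pole kinase, had 195 FPKM with VD3 plus MM-401, 203 with VD3 and 117 untreated. Prc1, the microtubule bundler that Kif4 carries, had 167 FPKM with VD3 plus MM-401, 178 with VD3 and 186 untreated. Psrc1, a microtubule-binding protein of the spindle, had 245 FPKM with VD3 plus MM-401, 254 with VD3 and 193 untreated. The median difference of the list was 0.02 with VD3 plus MM-401 and 0.31 with VD3.

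Among 18 measured light chains and cargo adaptors, Ktn1, an endoplasmic reticulum membrane protein that binds kinesin, was lower with VD3, and none was lower or higher with VD3 plus MM-401. Of the 18, 15 had at least 5 FPKM and could be counted, and 4.22% of all genes were lower with VD3. Ktn1 had 12.1 FPKM with VD3 plus MM-401, 6.50 with VD3 and 32.5 untreated. Klc1, a light chain that couples Kif5 motors to cargo, had 44.6 FPKM with VD3 plus MM-401, 46.7 with VD3 and 29.3 untreated. Trak1, an adaptor of mitochondria, had 28.0 FPKM with VD3 plus MM-401, 36.7 with VD3 and 26.0 untreated. Rhot1, which anchors it, had 34.7 FPKM with VD3 plus MM-401, 32.7 with VD3 and 30.5 untreated. Arl8b, which recruits Kif5 motors to lysosomes, had 38.9 FPKM with VD3 plus MM-401, 39.8 with VD3 and 39.7 untreated. No gene of the 23 listed for dynein and dynactin, the motor of the opposite direction and its activator, was lower or higher in either treated pool. Of the 23, 21 had at least 5 FPKM and could be counted. Among all genes, 2.68% were lower and 4.26% higher with VD3 plus MM-401, and 4.22% were lower and 0.926% higher with VD3. Light chains were the most abundant of these. Dynll1 had 886 FPKM with VD3 plus MM-401, 721 with VD3 and 385 untreated. Dynlrb1 had 735 FPKM with VD3 plus MM-401, 412 with VD3 and 287 untreated. A further light chain, Dynll2, had 277 FPKM with VD3 plus MM-401, 236 with VD3 and 148 untreated. Actr10, a dynactin subunit, had 245 FPKM with VD3 plus MM-401, 226 with VD3 and 136 untreated.

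Of 13 tubulins with a row, the subunits of the track itself, 2 α-tubulins were higher with VD3 plus MM-401. Of the 13, 10 had at least 5 FPKM and could be counted, and 4.26% of all genes were higher in that comparison. Tuba1b had 112 FPKM with VD3 plus MM-401, 74.2 with VD3 and 45.9 untreated. Tuba1c had 83.6 FPKM with VD3 plus MM-401, 60.2 with VD3 and 40.3 untreated. None of the 13 was lower or higher with VD3, where 4.22% of all genes were lower and 0.926% higher. Among the others, the β-tubulin Tubb5 had 1122 FPKM with VD3 plus MM-401, 1068 with VD3 and 751 untreated, and Tubb4b had 298 FPKM with VD3 plus MM-401, 331 with VD3 and 211 untreated. The α-tubulin Tuba4a had 377 FPKM with VD3 plus MM-401, 435 with VD3 and 279 untreated, and Tuba1a had 183 FPKM with VD3 plus MM-401, 162 with VD3 and 123 untreated. With VD3 plus MM-401 the median difference from untreated was 0.34 for dynein and dynactin, 0.47 for tubulins and -0.02 for mitotic kinesins. With VD3 it was 0.52 for dynein and dynactin, 0.44 for tubulins and -0.17 for mitotic kinesins. After the fit on GC content and length the medians with VD3 plus MM-401 were -0.0048 for dynein and dynactin, -0.04 for tubulins and -0.08 for mitotic kinesins. The fitted medians with VD3 were 0.10 for dynein and dynactin, -0.03 for tubulins and -0.14 for mitotic kinesins.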

How the data were processed

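RNA of 6 libraries in 3 groups was sequenced after TruSeq preparation, per the labels' protocols. Reads were processed against mm10 with Cufflinks 2.2.1, TopHat2 2.1.1 and SAMtools 1.5, per the submitters' processing notes, with no settings or strand stated. The authors deposited FPKM per locus with bounds, and estimated counts, which need not be whole, with their variance, in 1 column per pool of 2 libraries. The planned fit across libraries was therefore not possible, and no p-value is given.

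Rows were found by name and loci of the same gene summed. Log2 differences used FPKM + 1. CPM is the estimated count scaled to the pool total. The GC and length fit was an additive spline (6 knots, degree 3, scikit-learn 1.9.0) on GENCODE vM21 transcripts. Simulated data tested a spline on GC content alone, and the fit with length was not tested. Members, lists and the criterion for lower and higher genes were chosen with earlier results of these data known. Named genes are all members, with values by pool from 5 FPKM up, and from the lists of partners, adaptors, dynein and tubulins those past the criterion and the 4 most abundant others. Cenpe was named as well because it is itself a kinesin. Alternatives were another pseudocount, measure, centring, filter, fold or locus choice.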

Additional observations from a re-analysis of the deposited data

How the results depend on the processing

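Each pool is 1 column, so leaving out a library was not run. No paired analysis was possible because the libraries of a group are not separate columns. On CPM, with intervals of 2 SD, 7 kinesins were lower than untreated with VD3 plus MM-401, against 4 in FPKM, and 7 with VD3, against 5. By a 2-fold difference alone, 2 were higher than untreated with VD3 plus MM-401 and 1 was higher than with VD3, against 0, and 6 were lower with VD3, against 5. Centring on the median gene moved the medians with VD3 against untreated to -0.41 for transport kinesins, against -0.05, and to -0.53 for mitotic kinesins, against -0.17. After adjustment for GC content and length, 3 kinesins were lower with VD3 plus MM-401 and 4 with VD3. With 5 added to each FPKM, 4 were lower with VD3. The cause was not tested. Over the other filters, pseudocounts and locus choices, and with shared loci counted, an addition made after seeing the data, the numbers of lower kinesins stayed at 4 with VD3 plus MM-401 and 5 with VD3, and no counted gene turned its direction. The depth limits members under 5 FPKM, whose intervals are wide.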
